A study of Homo sapiens with 3 samples.

Results

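The genes described here are 10 that encode subunits of the Polycomb repressive complexes, PCGF1, PCGF2, PCGF3, PCGF5, PCGF6, BMI1, RING1, RNF2, EZH2 and SUZ12. They were found by gene name in both deposited gene tables, and all 10 matched 1 row each of the 57820 genes listed. The set was chosen by gene name with the Flag and IgG counts of these libraries known, PCGF2 above all, so the Flag over IgG values of the members are given as a description and no test is made of them. The study precipitated RNA from ACHN cells, a human line derived from renal cell carcinoma, made to express the RNA-binding protein MEX3A stably with a Flag tag (RNA immunoprecipitation and sequencing). The groups used are an anti-Flag precipitate and a control precipitate made with IgG, each with 1 library, and both came from the MEX3A-Flag line. Cells were fixed with 0.3% formaldehyde, and glycine was used at 0.125 M, in both groups. Input RNA was not analysed here, so no value is set against the level of an mRNA in the cells. No library of cells without the tagged protein was analysed, and MEX3A was overexpressed, so the values are not those of the protein at its natural level.

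Polycomb proteins keep developmental genes silent by modifying chromatin. PRC2, in which EZH2 is the methyltransferase and SUZ12 a core scaffold, methylates histone H3, and PRC1, in which RING1 or RNF2 is the ubiquitin ligase, ubiquitylates histone H2A. Each PRC1 assembly holds 1 PCGF protein, and that protein decides which partners join: PCGF2 (also called MEL-18) and its close paralog BMI1 (PCGF4) form canonical PRC1 with CBX and PHC proteins, while PCGF1, PCGF3, PCGF5 and PCGF6 form variant complexes. BMI1 is known for silencing the locus of the cell cycle inhibitor CDKN2A. MEX3A binds mRNA through KH domains. In these data the subject is the mRNA of these genes, not their proteins or their work on chromatin.

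Read depth was 5498124 counts for Flag and 3412864 for IgG. MEX3A's own mRNA had 103 counts in the Flag precipitate, against 5 in the IgG precipitate. Of 8 markers listed for ACHN, which are renal epithelial genes and the mesenchymal VIM, all were detected in both libraries, with summed counts of 7634 in the Flag precipitate, against 3908 in the IgG precipitate. VIM alone had 2383 of these counts in the Flag precipitate, against 1557 in the IgG precipitate. By contrast, the leukocyte markers PTPRC and CD3E and the endothelial markers CDH5 and KDR had 0 counts in both. A count of 0 was taken to allow up to 3 counts, which are 0.546 CPM (Flag) and 0.879 CPM (IgG). The exact 95% Poisson interval of a 0 count reaches further, to 0.671 CPM (Flag) and 1.08 CPM (IgG). CPM are the counts of a gene scaled to a common library total. Each Flag over IgG ratio of CPM carries an exact 95% interval. Genes with 20 or more counts in all were called enriched where the whole interval exceeded 2, and depleted where the whole interval was under 0.5. Intervals cover counting error only, since no library has a replicate, and a call compares these libraries rather than the antibodies. With this rule 28.7% of 10811 genes were enriched and 1.32% depleted, and the median ratio over all of them was 1.93, with quartiles of 1.07 and 3.69.

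All 10 Polycomb genes passed the minimum of 20 counts, and all had a higher CPM in the Flag library, though RING1 had a ratio of 0.997 with median-of-ratios scaling. Enriched were 4 of 10, PCGF2, PCGF6, BMI1 and PCGF5, and 0 were depleted, beside 28.7% and 1.32% over all genes; since the contrast took part in choosing the set, nothing is read from these counts. PCGF1, PCGF3, both ligase genes and both PRC2 genes were not called. The median log2 ratio was 1.41 for the 10 genes (1.36 without PCGF2) and 0.95 for all genes. Of the 10, 7 lay above the median gene. PCGF3, RNF2 and RING1 lay just below it.

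**Figure D1:**
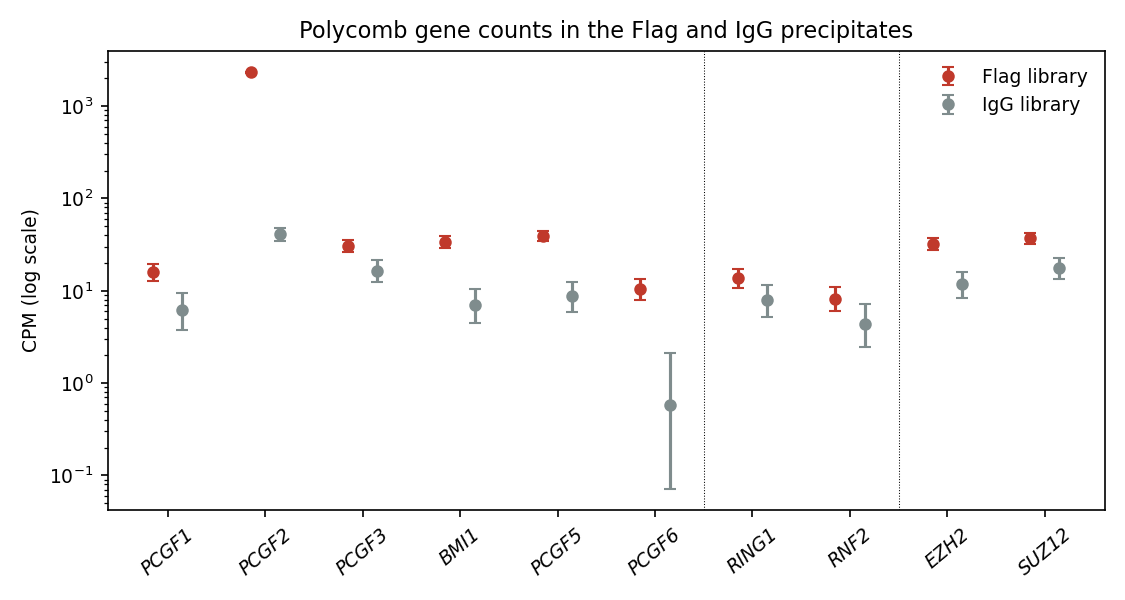
CPM on a log axis of each Polycomb gene in the Flag library (red, left of each pair) and the IgG library (grey), with exact 95% Poisson intervals of the counts; dotted lines part the PCGF genes, the ligase genes and the PRC2 genes. PCGF2 stood at 2323 CPM in the Flag precipitate, against 41.0 CPM in the IgG precipitate, while the other 9 genes were between 8.19 and 39.3 CPM in the Flag precipitate, against between 0.586 and 17.6 CPM in the IgG precipitate.

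PCGF2, a subunit of canonical PRC1, had 12773.84 expected counts in the Flag precipitate, against 139.5 in the IgG precipitate. These are 2323 CPM (95% counting interval 2283 to 2364) and 41.0 CPM (34.5 to 48.4). The ratio was 56.6 (47.9 to 67.4). By lower bound it ranked 7 among the 10811 genes, and by count it ranked 33 in the Flag precipitate, against 1184 in the IgG precipitate. The gene took 0.232% of all Flag counts and 0.0041% of all IgG counts.

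The other 5 PCGF genes together had 714 counts with Flag and 133 with IgG, a ratio of 3.33 (2.77 to 4.04). PCGF2 therefore made up 94.7% of the counts of the 6 PCGF genes in the Flag library (94.3 to 95.1, exact binomial) and 51.3% in the IgG precipitate (45.2 to 57.4). With PCGF2 included, the 6 genes had a ratio of 30.7 (27.2 to 34.7). The family's total in the Flag library was thus set almost wholly by 1 gene.

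The counts of PCGF2 are fractional, which happens when reads are divided between genes. CISD3, which encodes a mitochondrial iron-sulfur protein and whose RefSeq gene range overlaps that of PCGF2, had 38.16 counts in the Flag precipitate, against 19.5 in the IgG precipitate. Added together, the pair had 12812.00 counts in the Flag precipitate, against 159.00 in the IgG precipitate, so that the fractions of both genes made whole reads in each library. The summed ratio was 50.02 (42.8 to 58.9), close to that of PCGF2 alone, and the ratio of CISD3 alone was 1.18 (0.669 to 2.14). MLLT6 and PSMB3, genes near PCGF2 that were chosen after their values were seen, had ratios of 1.52 (1.32 to 1.77) and 0.658 (0.439 to 0.988). Neither flanking gene nor CISD3 had a ratio near that of PCGF2. The strand setting of the counting is not given, so antisense reads at PCGF2 cannot be separated from its own.

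BMI1, the paralog of PCGF2 in canonical PRC1, had 184.99 counts (33.7 CPM) in the Flag precipitate, against 23.99 counts (7.03 CPM) in the IgG precipitate. Its ratio was 4.78 (3.12 to 7.66), with an interval wholly below that of PCGF2. The counts of BMI1 are also divided, here with the readthrough gene COMMD3-BMI1, which had 5.2 Flag and 3.01 IgG counts, and with COMMD3, a gene of protein trafficking, at 12.81 and 7 counts. The sum of the 3 genes was 203.00 counts in the Flag precipitate, against 34.00 in the IgG precipitate, again whole reads, with a ratio of 3.71 (2.57 to 5.5). The sum was called enriched, and BMI1 supplied most of its counts in both libraries. The 7 IgG counts of COMMD3 were whole.

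PCGF6, of the variant complex that holds E2F6, MGA and MAX, had 57 counts (10.4 CPM) in the Flag precipitate, against 2 counts (0.586 CPM) in the IgG precipitate. The ratio was 17.7, but 2 IgG counts leave it anywhere between 4.68 and 149.6. At a threshold of 4 the enriched members were PCGF2 and PCGF6, 2 of 10 beside 8.55% of all genes. PCGF6 was also the sparsest of the 10 in the IgG precipitate. PCGF5, of a variant complex that binds AUTS2, had 216 counts (39.3 CPM) in the Flag precipitate, against 30 counts (8.79 CPM) in the IgG precipitate, a ratio of 4.47 (3.04 to 6.79). The intervals of PCGF5 and BMI1 overlapped over most of their width.

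PCGF1, of the variant complex with BCOR and the CpG-binding KDM2B, had 87 counts (15.8 CPM) in the Flag precipitate, against 21 counts (6.15 CPM) in the IgG precipitate. Its ratio of 2.57 (1.58 to 4.36) was not called. PCGF3, which forms the same kind of complex as PCGF5, had 169 counts (30.7 CPM) in the Flag precipitate, against 56.45 (16.4 CPM) in the IgG precipitate. Its ratio was 1.87 (1.38 to 2.58). The IgG count of PCGF3 is fractional, so its reads there are divided as well, and no sum was made for this gene. By counts PCGF3 and PCGF5 lay apart, with intervals that did not overlap, but by TPM, an abundance per length of transcript, with 0.1 added, they were level at 3.25 and 3.34.

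By counts the PRC1 ligase genes were, with PCGF3, the 3 members with the lowest ratios. By TPM with 0.1 added the 3 lowest were RING1 (1.71), BMI1 (2.03) and RNF2 (2.12). RING1 had 75 counts (13.6 CPM) in the Flag precipitate, against 27 counts (7.91 CPM) in the IgG precipitate, a ratio of 1.72 (1.10 to 2.79). RNF2 had 45 counts (8.19 CPM) in the Flag precipitate, against 15 counts (4.40 CPM) in the IgG precipitate, a ratio of 1.86 (1.02 to 3.60). Summed, the 2 ligase genes had 120 counts in the Flag precipitate, against 42 in the IgG precipitate, at a ratio of 1.77 (1.24 to 2.58), which lay close to the median gene.

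EZH2, the PRC2 methyltransferase gene, had 177 counts (32.2 CPM) in the Flag precipitate, against 40 counts (11.7 CPM) in the IgG precipitate. Its ratio was 2.75, and the lower bound of 1.94 (upper bound 3.97) fell just short of the threshold. SUZ12 had 205 counts (37.3 CPM) in the Flag precipitate, against 60 counts (17.6 CPM) in the IgG precipitate, a ratio of 2.12 (1.58 to 2.88). SUZ12P, a pseudogene copy of SUZ12 with 14 counts with Flag and 15 with IgG, had a ratio of 0.579 (0.259 to 1.29). Both had whole counts, and their sum had a ratio of 1.81 (1.39 to 2.39). EZH2 and SUZ12 together had 382 counts with Flag and 100 with IgG, a ratio of 2.37 (1.90 to 2.99).

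Among the 45 pairs that the 10 genes form, the ratio intervals by counts lay apart in 20. PCGF2 lay above every other member but PCGF6. PCGF6 lay above EZH2, PCGF1, SUZ12, PCGF3, RNF2 and RING1, and BMI1 and PCGF5 each lay above SUZ12, PCGF3 and RING1. By TPM with 0.1 added BMI1 (2.03) was below SUZ12 (2.25) and PCGF3 (3.25), and PCGF5 (3.34) was level with PCGF3. No pair among EZH2, PCGF1, SUZ12, PCGF3, RNF2 and RING1 was separated at this depth.

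**Figure D2:**
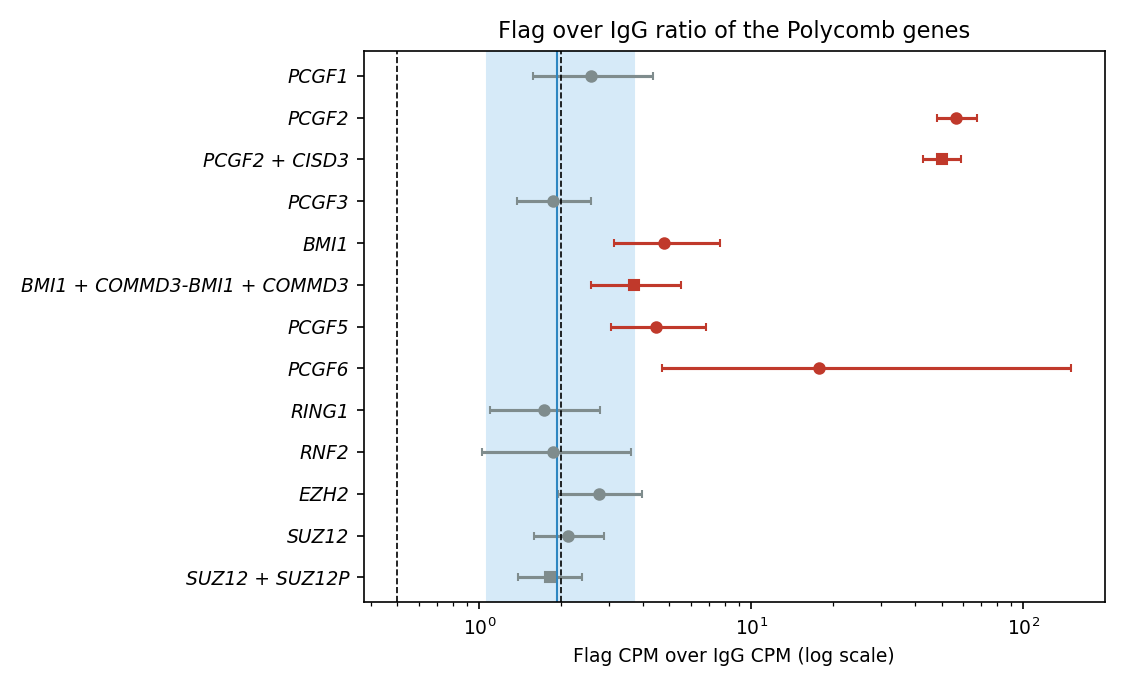
Ratio of Flag CPM to IgG CPM on a log axis, with exact 95% counting intervals, for each Polycomb gene (circles) and for the sums with genes that overlap or copy them (squares); red marks the enriched, dashed lines stand at 0.5 and 2, and the blue line and band give the median (1.93) and quartiles (1.07 to 3.69) of all 10811 genes. PCGF2 and its sum with CISD3 lie far to the right, at 56.6 and 50.02, and RING1, RNF2, PCGF3 and SUZ12 lie near the median gene.

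Where the scale is set decides how many of these genes are called. TMM scaling divided every ratio by 1.715, so that ratios under that value, here and in the lists that follow, turned to below 1. It lowered the log2 ratios by 0.78, which brought the median of all genes to 0.17 and that of the 10 genes to 0.63. PCGF2 and PCGF6 then stayed enriched, 2 of 10 beside 12% of all genes, PCGF5 and BMI1 lost their calls, and 0 of 10 were depleted beside 6.12%. Median-of-ratios scaling likewise gave 2 of 10, beside 11.7%. A threshold of 1.5 gave 7 of 10 beside 40%, and a minimum of 100 counts gave 3 of 8 beside 37.9%. RING1 and RNF2, near the median gene on either scale, had ratios of 1.005 and 1.09 with TMM scaling. The order of the members by counts does not depend on the scale.

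Levels were compared between genes with the authors' TPM. In the Flag library PCGF2 came first at 1316.9 TPM, and PCGF3 (22.4), PCGF1 (20.6), BMI1 (20.2), PCGF5 (18.3) and EZH2 (16.7) followed, each with a counting interval that overlapped its neighbour's. SUZ12 (9.41), RING1 (8.63), PCGF6 (6.0) and RNF2 (5.29) formed a lower group, below EZH2 beyond counting error and without a gap among neighbours. In the IgG library PCGF2 was also first, at 20.7 TPM (17.4 to 24.4), above BMI1 at 9.90 TPM (6.34 to 14.7). From BMI1 down to RNF2 at 2.44 TPM no neighbours lay apart, and PCGF6 was last at 0.33 TPM, below RNF2. PCGF2 thus led the 10 genes in the background too, by a far smaller margin.

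TPM gave other ratios for some members. On the TPM + 0.1 scale PCGF2 had a ratio of 63.4, PCGF6 of 14.2 and RING1 of 1.71, near their ratios by counts. BMI1 was at 2.03, less than with counts, and PCGF3 at 3.25, more than with counts. The remaining ratios were 3.34 for PCGF5, 3.05 for EZH2, 2.99 for PCGF1, 2.25 for SUZ12 and 2.12 for RNF2. By the fold alone, with no interval, 9 of 10 lay above 2 with TPM, all but RING1, beside 44.2% of all genes. On the TPM + 1 scale 7 did, beside 37.7%.

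The tables give each gene a transcript length that is weighted by the estimated abundance of its transcripts. The choice of genes did not use this length directly, but TPM is scaled by effective length and so depends on it. BMI1 had a length of 1834.74 bases in the Flag precipitate, against 892.56 bases in the IgG precipitate, and PCGF3 had 1542.96 and 2581.47 bases. These genes differ in opposite directions, and they are the 2 members whose ratios by counts and by TPM lay furthest apart. The lengths enter the TPM, so this match follows from how TPM is computed and is no separate evidence. PCGF5 was at 2316.69 bases in the Flag precipitate, against 1804.58 bases in the IgG precipitate. PCGF2 was at 1933.23 and 2146.54 bases, EZH2 at 2098.49 and 2339.93, and SUZ12 at 4110.87 and 4397.74. RING1 had the same length, 1752 bases, in both.

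Of the 8 members with at least 20 counts in each library, 2 (BMI1 and PCGF3) had lengths that differed by over 1.5-fold, a limit chosen after the values were seen. Among all 6433 genes with that depth the share was 18.9%, so a difference of this size was common in these libraries. The IgG lengths of BMI1 and PCGF3 rest on 24 and 56 counts spread over 10 and 14 annotated transcripts, and no interval can be given for them.

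**Figure D3:**
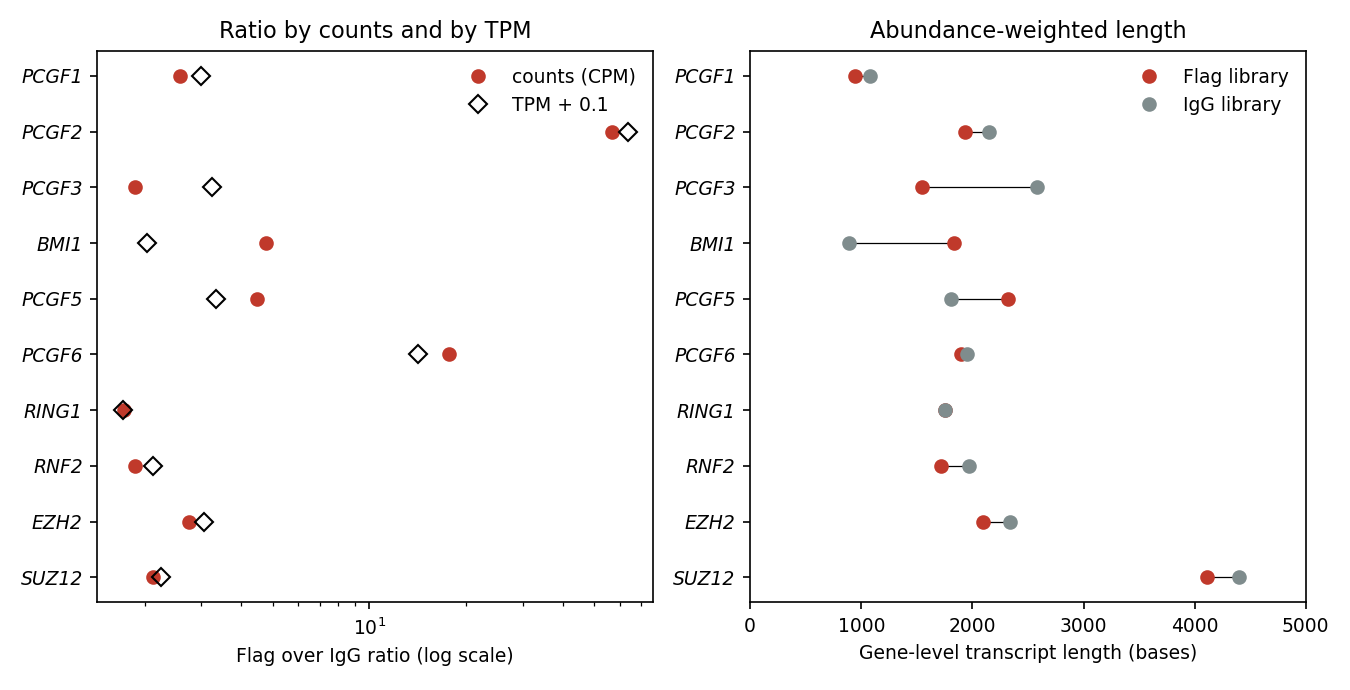
Left, the Flag over IgG ratio of each Polycomb gene on a log axis, by counts (red circles) and by TPM + 0.1 (open diamonds); right, the abundance-weighted transcript length in bases in the Flag library (red) and the IgG library (grey). The ratio of BMI1 is 4.78 by counts and 2.03 by TPM, and that of PCGF3 is 1.87 and 3.25; their lengths differ between the libraries, while those of RING1 coincide.

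The other genes of the Polycomb system were taken from 4 lists of 49 genes, of which 47 had at least 20 counts. Enriched were 24 of 47 and depleted 0, beside 28.7% and 1.32% of all genes, and the median log2 ratio was 1.55 beside 0.95. The lists were chosen with earlier results of these data known, so nothing is read from these counts or those of each list. With at least 100 counts 22 of 36 were enriched, beside 37.9% of all genes. With TMM scaling 8 of 47 were enriched, beside 12% of all genes. AUTS2 and ASXL3 had 0 counts in both libraries.

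Of 21 other PRC1 genes 13 were enriched, beside 28.7% of all genes. CBX genes encode the chromodomain subunits that partner PCGF2 and BMI1. CBX7 had 342 counts with Flag and 11 with IgG, a ratio of 19.3 (10.7 to 39.0). CBX8 had 222 and 13 counts, a ratio of 10.6 (6.07 to 20.2). CBX6 had 3921 counts with Flag and 444 with IgG and a ratio of 5.48 (4.97 to 6.06). CBX2, at 51 and 41 counts, had a ratio of 0.772 (0.502 to 1.19), and its interval lay below those of CBX6, CBX7 and CBX8. CBX6, CBX7 and CBX8 were enriched with TMM scaling as well.

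The PHC genes, which encode the polymerising subunits of canonical PRC1, differed among themselves. PHC3 was enriched at 3.38 (2.49 to 4.66) but not with TMM scaling, and PHC2 was at 1.10 (0.861 to 1.40). PHC1, whose counts are fractional, was at 2.08 (1.49 to 2.96), or 1.83 (1.36 to 2.50) when summed with its pseudogene PHC1P1. That sum, at 174.40 counts with Flag, was still fractional, so it does not settle how the reads are divided. The ratio of PHC1 was 0.744 with TPM. RYBP and YAF2, which encode the alternative partners of RING1 and RNF2 in variant PRC1, were enriched at 3.72 (2.73 to 5.19) and 5.93 (2.98 to 13.4). Of the genes of the PCGF6 complex, E2F6 was enriched at 4.69 (2.86 to 8.15), MAX at 3.04 (2.07 to 4.61) and MGA at 2.63 (2.12 to 3.30). L3MBTL2 of that complex was at 0.957 (0.557 to 1.67), or 0.424 with TPM, where 6.59% of all genes lay below 0.5.

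For partners of PCGF1, KDM2B was enriched at 2.63 (2.02 to 3.47) and BCOR was not called at 2.05 (1.49 to 2.87), though its ratio was 5.89 with TPM. USP7, a deubiquitinase found with PRC1, was enriched at 3.64 (2.79 to 4.81) and DCAF7, a WD-repeat partner of the PCGF3 and PCGF5 complexes, at 5.02 (4.10 to 6.2). Of these variant PRC1 genes, DCAF7 alone was still enriched with TMM scaling; RYBP, YAF2, E2F6, MAX, MGA, KDM2B and USP7 were not. The ratios of MGA and USP7 were 1.36 and 1.30 with TPM, and their calls were lost. SCML2, with 23 counts with Flag and 2 with IgG, was not called at 7.14 (1.76 to 62.5), or 3.14 with TPM. The ratios of MAX and KDM2B were 5.38 and 4.21 with TPM.

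Of 12 other PRC2 genes 6 were enriched, beside 28.7% of all genes. EED, which encodes the subunit that reads the methyl mark and is a core partner of EZH2 and SUZ12, had 662 counts in the Flag precipitate, against 40 in the IgG precipitate. Its ratio of 10.3 (7.46 to 14.5) lay above those of EZH2 and SUZ12, with intervals that did not overlap, and EED was enriched under every alternative run. The accessory genes AEBP2 at 5.5 (3.89 to 8.0) and LCOR at 5.55 (4.20 to 7.48) were enriched, also with TMM scaling. With TPM, for which no interval was made, the ratios were 2.49 for AEBP2 and 8.34 for LCOR. MTF2 at 4.54 (2.53 to 8.83), C10orf12 at 3.41 (2.69 to 4.36) and the histone-binding RBBP4 at 2.92 (2.27 to 3.80, with fractional counts) were enriched with total counts but not with TMM scaling, and RBBP4 not with TPM (1.18), where MTF2 was at 2.38. Its paralog RBBP7 was at 1.08 (0.800 to 1.46), or 1.94 with TPM. EZH1, the paralog of EZH2, had 37 counts with Flag and 32 with IgG and a ratio of 0.718 (0.435 to 1.19), or 1.06 with TPM. By counts it lay below that of EZH2 beyond counting error. PHF1 was at 1.17 (0.704 to 1.98), and of the rest with the highest lower bounds C17orf96 was at 6.21 (1.51 to 54.8), JARID2 at 2.02 (1.25 to 3.38) and PHF19 at 1.42 (1.02 to 2.02), or 0.577 with TPM.

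PR-DUB removes the ubiquitin that PRC1 puts on histone H2A. Of its 10 genes with enough counts 4 were enriched, beside 28.7% of all genes. These were BAP1, ASXL2, FOXK2 and MBD5. BAP1, the catalytic subunit gene, was at 3.43 (2.82 to 4.21) and ASXL2 at 3.45 (2.72 to 4.42). FOXK2 was at 3.0 (2.35 to 3.88) and MBD5 at 5.09 (2.63 to 11.0). None of the 4 was enriched with TMM scaling, and ASXL2 (1.90) and FOXK2 (1.69) not with TPM either, where MBD5 was at 7.79. ASXL1, the paralog of ASXL2, was at 1.02 (0.850 to 1.24), HCFC1 at 1.03 (0.895 to 1.18) and OGT at 0.869 (0.633 to 1.20). FOXK1 was at 1.98 (1.79 to 2.19), KDM1B at 2.41 (1.55 to 3.87), or 0.557 with TPM, and MBD6 at 1.63 (1.29 to 2.06). Among 4 genes of other enzymes that erase the Polycomb marks, the H2A deubiquitinase gene MYSM1 was enriched at 3.15 (2.09 to 4.91), or 4.84 with TPM, but not with TMM scaling, while USP16 was at 2.55 (1.66 to 4.04), and the H3 demethylase genes KDM6B and KDM6A were at 1.79 (1.42 to 2.28) and 0.569 (0.304 to 1.06).

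Over all 57 Polycomb genes measured here, PCGF2 had the highest ratio by counts and by TPM, and its interval overlapped only those of PCGF6, SCML2 and C17orf96, each with 2 IgG counts.

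**Figure D4:**
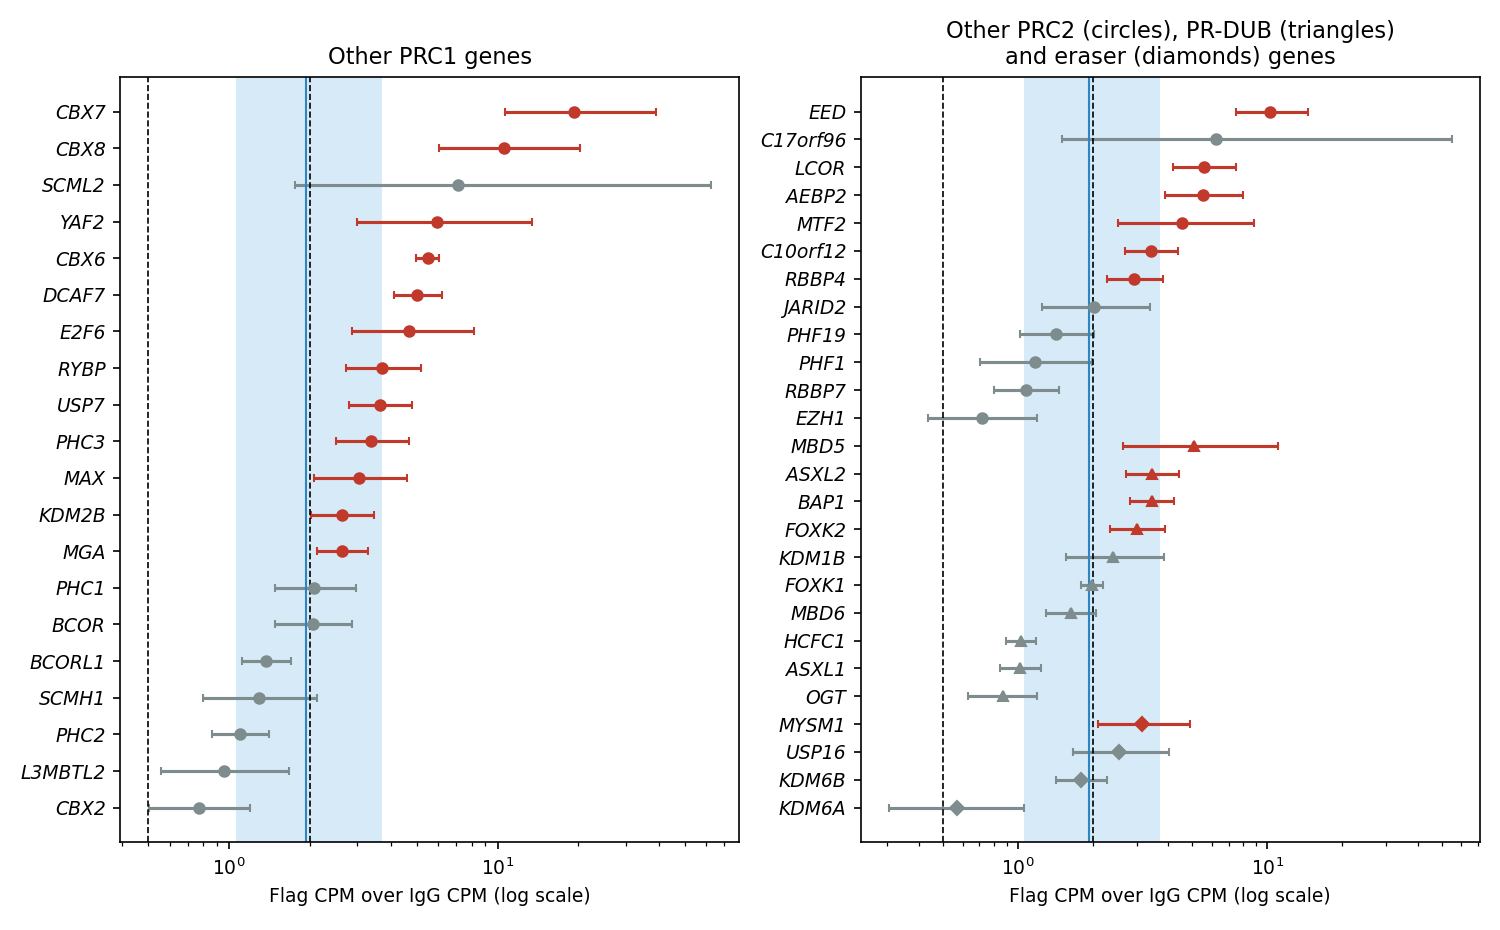
Ratio of Flag CPM to IgG CPM on a log axis with exact 95% counting intervals for most other PRC1 genes (left) and other PRC2, PR-DUB and eraser genes (right), each list in order of its ratio; red marks the enriched, dashed lines stand at 0.5 and 2, and the blue line and band give the median and quartiles of all genes. CBX7 (19.3), CBX8 (10.6) and EED (10.3) have the highest ratios among the enriched genes of these lists, and L3MBTL2 (0.957), OGT (0.869), CBX2 (0.772), EZH1 (0.718) and KDM6A (0.569) lie below 1.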

How the data were processed

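RNA of 1 anti-Flag and 1 IgG precipitate was analysed. The tables have the columns of RSEM's gene results, and the expected counts in them are the authors' estimates of reads per gene, with no normalization, per the file headers. TPM, also deposited, is an abundance scaled by effective length. The deposited lengths, another measure, are in bases and weighted over transcripts. The submitters' processing notes name RSEM, STAR, GRCh37 and hg19 and give no roles or versions. Read filters, strand and annotation release are not given in the sources cited here. Counting of this type splits reads of overlapping or near-identical genes, whose counts are therefore uncertain.

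Expected counts were rounded. A count was taken as whole within 0.005, and a count of 0 allows up to 3. Intervals are exact Clopper-Pearson at 95% (SciPy 1.17.1) and cover counting error only, since no library has a replicate. They treat reads as independent. PCR duplicates were not marked by molecular identifiers, and duplicates would leave the intervals too narrow. The interval was tested on simulated data drawn as independent counts, the model that it assumes. That test checks the computation and cannot show how well the interval holds for these libraries. With 1 library per group no p-value was computed.

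The members and lists were chosen with earlier results of these data known. The rule for named genes takes the 10 members, MEX3A, genes that share reads with members, every called gene of the related lists and up to 3 others at each end of a list. Alternatives were TMM (edgeR 4.0.16) and median-of-ratios scaling (DESeq2 1.42.0), totals that leave out mitochondrially encoded genes and the 10 largest, a minimum of 100 counts or none, TPM with a pseudocount of 0.1 or 1, 0.5 added to each count, thresholds of 1.5 and 4, a 99% interval, protein-coding genes alone and sums over genes that share reads. Chosen after seeing the data were the sums over PCGF, ligase and PRC2 genes, PHC1 with PHC1P1, values without PCGF2 and the limit on lengths. Neighbouring genes were taken from RefSeq on GRCh38.p14, without coordinates. PECAM1 was not found under that symbol. Some genes that the rule for named genes takes, though counted, are left out of the text and plots.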

Additional observations from a re-analysis of the deposited data

How the results depend on the processing

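The depth of the IgG library limits most ratios, since 9 of the 10 members had under 100 counts there. The count of 4 enriched members became 2 with TMM scaling, median-of-ratios scaling and a 4-fold threshold, 7 at a 1.5-fold threshold and with TPM at a pseudocount of 1, and 9 with TPM at a pseudocount of 0.1. It was 3 without PCGF2 and with at least 100 counts, which leaves out PCGF6 and RNF2. The members' median log2 ratio of 1.41 became 0.63 with TMM, 0.62 with median-of-ratios scaling, 1.08 with totals that leave out mitochondrial and the 10 largest genes, and 1.59 with TPM at a pseudocount of 0.1. PCGF2 was enriched under all 12 alternatives, with a ratio from 32.8 to 63.4, and PCGF6 under the 11 in which it had enough counts. BMI1 lost its call with both of these scalings, at a 4-fold threshold and with TPM at a pseudocount of 1 (1.95), and PCGF5 with both scalings and at a 4-fold threshold. Of 47 related genes the 24 enriched became 8 with either scaling, beside 12% (TMM) and 11.7% (median-of-ratios) of all genes. At a 4-fold threshold they became 7, beside 8.55%. TPM at a pseudocount of 0.1 gave 1 depleted, L3MBTL2 (0.424), beside 6.59% of all genes.

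Over all genes the 3100 enriched and 143 depleted became 1293 and 662 with TMM (66.1% of called genes enriched, against 95.6% with total counts), 1269 and 675 with median-of-ratios scaling (65.3%), 924 and 24 at a 4-fold threshold, and 4780 and 712 with TPM at a pseudocount of 0.1. The depleted were 268 with totals that leave out mitochondrial and the 10 largest genes, 298 at a 1.5-fold threshold, 536 with TPM at a pseudocount of 1 and 218 with no filter. A scaling moves every ratio alike. Another threshold or minimum count leaves each ratio as it was and moves only the cut or the genes that enter. The cause of the changes with TPM, where calls used the fold alone, was not tested. No paired analysis was possible because each group has 1 library.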
